A study of Mus musculus with 8 samples.

Results

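RNA-binding proteins that bind, splice, stabilise or store messenger RNA were followed as transcripts in the ELAVL1 pull-down of a gonadotrope cell line. The members were all probes whose platform gene symbol starts with Hnrnp, or with Srsf and a digit, or is 1 of 25 further listed genes. They came to 97 of the 25697 probes of the array and 49 genes. Of the 25 listed genes 22 had a probe under the listed name, while Fxr2, Igf2bp2 and Ybx1 were not analysed here. The members fell into heterogeneous nuclear ribonucleoproteins (hnRNPs, 41 probes of 18 genes), SR splicing factors (16 probes of 9 genes), binders that act on messenger RNA stability, decay and localisation (20 probes of 12 genes), other splicing regulators (11 probes of 5 genes), and translation and stress-granule proteins (9 probes of 5 genes).

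The hnRNPs coat nascent transcripts and often hold back the use of splice sites, whereas SR proteins, named for their serine- and arginine-rich tails, bind exonic enhancers and promote it. Several of these proteins, among them hnRNP D, KHSRP, TIA1 and the CELF proteins, bind the same kind of AU-, U- or GU-rich stretches in messenger RNA tails as ELAVL1, also called HuR, and either compete or cooperate with it. RNA-binding proteins are known to bind transcripts of other RNA-binding proteins and their own.

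LbetaT2 is an immortalised mouse pituitary line with features of gonadotropes, the cells that answer gonadotropin-releasing hormone (GnRH). Cells were kept without serum for 16 h and then given GnRH for 30 min (4 arrays) or vehicle for 30 min (4 arrays). In both groups lysates were cleared with beads and IgG, ELAVL1 was pulled down with 5 µg of antibody, the beads were washed 6 times, and the RNA recovered from them was labelled and read on an Illumina mouse bead array. Each array held one pull-down, and nothing in the labels says that the replicates were separate cultures, so p-values cover only how these samples vary, and that variation may be technical. RNA from before the pull-down was not analysed here. A change in a transcript's amount in the cell and a change in the share held by ELAVL1 therefore cannot be told apart. No control pull-down was analysed here either, so RNA held by ELAVL1 cannot be told from RNA that the beads carried over.

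Median signal lay between 33.4 and 42.1 per array, and 42.0% to 45.4% of probes were above background, meaning a detection p below 0.05. Of the 8 gonadotrope marker genes on the array 6 were above background on at least 4 arrays, among them Cga and Gnrhr, whereas the gonadotropin beta subunits Lhb and Fshb were not above background on any array. The 5 markers of other pituitary lineages and the 3 of blood were never above background, and 3 of 7 stromal and endothelial markers (Cdh5, Kdr and Pecam1) were on at least 4 arrays. The summed signal of that last list ran from 1880 to 2900 on GnRH arrays and from 1560 to 2660 on vehicle arrays, and that of the gonadotrope list from 22500 to 26500 on GnRH arrays and from 14500 to 24200 on vehicle arrays. The part of these lists in the results was not tested. On the same arrays the immediate early genes Egr1 and Fos were higher after GnRH by 3.80 ± 0.19 and 4.30 ± 0.27 on the log2 scale (SE, n = 4 arrays per group, limma adjusted p of 2.57e-06 and 2.36e-05).

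Transcripts of most of the RNA-binding proteins were readily seen in the pull-down. On each array 75.3% to 79.4% of the 97 member probes were above background, against the 42.0% to 45.4% of all probes. The number was 75 ± 1.83 on GnRH arrays and 76.2 ± 0.5 on vehicle arrays (mean ± SD, n = 4 each). Between 36 and 47 member probes lay above the 90th percentile of signal on their array, and the median member probe was brighter than 85.0% to 88.6% of the array's probes. Brightness is a property of probe and transcript together, so these ranks do not order the genes. Of the 97 probes 71 were above background on all 8 arrays and 16 on none. The test below used the 77 probes of 42 genes that were above background on at least 4 arrays.

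Among the brightest were Hnrnpab, a binder of AU-rich RNA and of single-stranded DNA, Hnrnpl, which binds CA repeats, Srsf1 and Srsf2, the founding SR proteins, and Srsf9, a small SR protein. A probe of each was brighter than at least 99.8% of the probes on every array. Pcbp2, a binder of C-rich stretches, was brighter than 99.7% to 99.8%, and a probe of Hnrnpc, which packages nascent RNA through U tracts, than 99.5% to 99.8%.

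Of the 49 genes 7 had no probe above background on 4 arrays. They were Fmr1 and Fxr1, translational regulators of the fragile X family, Hnrnpd, also known as AUF1, Hnrnpr, Igf2bp1, which protects transcripts from decay and is mostly fetal, Msi1, a neural progenitor factor, and Ptbp2, the neuronal relative of Ptbp1. Hnrnpr has 3 probes, and none was above background on any array. The single probe of Hnrnpd was above background on 0 of 4 GnRH arrays and on 1 of 4 vehicle arrays. The single probes of Fmr1, Fxr1, Igf2bp1, Msi1 and Ptbp2 were above background on no array. A dim probe does not show that its transcript was scarce, and no fold change is given for these genes. Pabpc1, described next, had dim and bright probes annotated to the same transcript.

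Probes of one gene did not always give the same answer about presence. Of the 30 genes with more than 1 probe, 20 had all probes tested, 9 had some tested and others not, and 1 (Hnrnpr) had none. Pabpc1, the main cytoplasmic poly(A)-binding protein, had a probe above background on all 8 arrays and 2 probes that were above it on 0 GnRH arrays and 1 vehicle array each. Ptbp1, the polypyrimidine-tract splicing repressor, had 1 probe above background on every array and 1 on none. The other genes with a mixed answer were Celf1, Hnrnpa2b1, Hnrnpa3, Hnrnph2, Hnrnpk, Pum2 and Tial1. Those among them outside the naming rule were picked with their values in view.

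GnRH against vehicle asks which of these transcripts changed in amount in the pull-down within 30 min of the hormone. No member probe passed the test in either direction. Of the 77 tested probes 0 were higher and 0 lower (limma, Benjamini-Hochberg adjusted p below 0.05 over all tested probes), where 30 of 11318 tested probes (0.265%) were higher and 0 (0%) lower. A count of 0 among 77 is close to that background share. At an unadjusted p below 0.05, 0 members were higher and 1 was lower by the same limma fit, against 2.09% and 0.813% of all tested probes. No member probe had its 4 GnRH values all above or all below its 4 vehicle values, which 1.53% and 0.618% of all tested probes had. Each of 21 alternative settings also called 0 members, with 0 to 12 of them at an unadjusted p below 0.05. The 12 of 77 came with array weights in limma, where 2413 of 11318 tested probes were at that p.

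The changes were small beside their errors. They ran from -0.64 to 0.38 on the log2 scale with a median of -0.07, against a median of -0.008 over all tested probes. A negative change was found for 47 of 77 member probes (61.0%), against 51.9% of all tested probes. The median turned positive, at 0.041, without vehicle array 1, with 42 probes positive and 35 negative. It was also positive, at 0.081, without normalization between arrays, where the median of all tested probes itself stood at 0.113. The 95% interval of the change lay within 2-fold either way for 63 of 77 members (81.8%), against 93.9% of all tested probes, and 41 of 42 genes had at least 1 such probe. That does not bound a gene whose probes differ, as another probe of G3bp1 had an interval from -2.01 to 0.99. For Hnrnpa1 the probe within 2-fold lay near background, and the other ran from -1.57 to 1.07. For 39 probes (50.6%) the interval lay within 1.5-fold, against 58.6% of all tested probes. Without normalization between arrays the medians of the hnRNPs (0.02), of the stability group (0.05) and of the splicing regulators (0.12) were positive too.

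**Figure D1:**
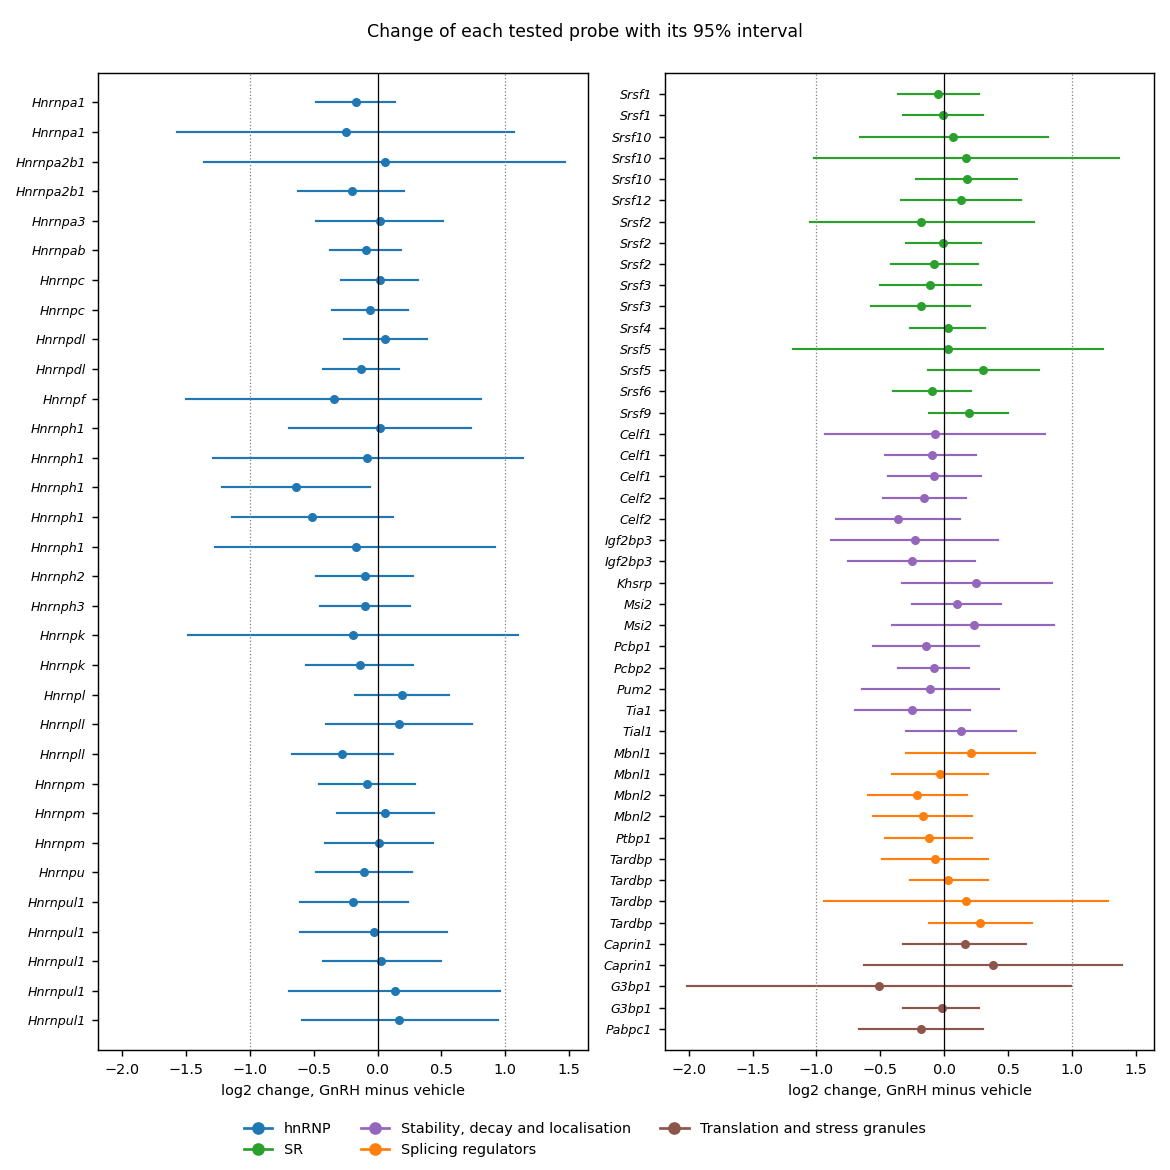
Log2 change of each of the 77 tested member probes, GnRH minus vehicle (points), with its 95% interval from limma (lines), hnRNPs on the left and the other groups on the right. Dotted lines mark a 2-fold change either way; 76 intervals cross 0, and the 1 that leaves it out is a probe of Hnrnph1.

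The hnRNPs had 12 positive and 20 negative changes over 32 tested probes, with a median of -0.09. Hnrnpl gave log2 signals of 13.41, 13.28, 13.05 and 13.03 on the 4 GnRH arrays and 13.29, 12.82, 12.76 and 13.15 on the 4 vehicle arrays. The 4 GnRH values overlapped the upper vehicle values, and the change was 0.19 ± 0.17 (SE), with an interval from -0.18 to 0.56. Hnrnpll, the relative of Hnrnpl known for splicing of the CD45 transcript in lymphocytes, had one probe (ILMN_2684732) at 0.17 ± 0.26 and another (ILMN_2768850) at -0.28 ± 0.18. The second stood at 9.33, 9.27, 9.69 and 9.46 in GnRH arrays and at 9.50, 9.85, 10.08 and 9.43 in vehicle arrays, with overlap. Hnrnpa1, a repressor of splicing that competes with SR proteins, had a dim probe (ILMN_3024068) at 4.96, 4.83, 5.08 and 4.64 in GnRH arrays and 5.06, 4.97, 5.15 and 5.01 in vehicle arrays, a change of -0.17 ± 0.14. Hnrnpk, a binder of C-rich stretches, had a probe (ILMN_2784821) at 8.30, 7.91, 8.47 and 7.95 in GnRH arrays and 8.20, 8.07, 8.20 and 8.71 in vehicle arrays. Its groups overlapped and its change was -0.14 ± 0.19.

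Hnrnph1, which binds runs of G and both promotes and blocks splicing, carried the lowest p among the members. Probe ILMN_2684986 stood at 6.47, 5.70, 6.90 and 6.02 in GnRH arrays and at 7.35, 6.95, 6.69 and 6.65 in vehicle arrays. Only the GnRH value of 6.90 reached into the vehicle range. The change was -0.64 ± 0.26 with an interval from -1.22 to -0.06 (limma unadjusted p = 0.0335, adjusted p = 1), so it did not pass the test. The other 4 tested probes of Hnrnph1 had changes of -0.51 ± 0.29, -0.17 ± 0.49, -0.08 ± 0.55 and 0.02 ± 0.32, all annotated to the same transcript. The 2 probes with the most negative changes moved together from array to array, their difference having a within-group SD of 0.18.

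Hnrnpab averaged 13.19 ± 0.03 on GnRH arrays and 13.28 ± 0.10 on vehicle arrays (SD, n = 4 each), a change of -0.09 ± 0.12. Hnrnpc gave changes of 0.02 ± 0.14 and -0.06 ± 0.13 on its 2 probes. Hnrnpm, which binds GU-rich RNA, had 3 probes at -0.08, 0.06 and 0.01, with SE between 0.17 and 0.19. Hnrnpab, Hnrnpc and Hnrnpm were named after their values were seen.

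The SR factors were split evenly, 8 positive and 8 negative over 16 tested probes, with a median of 0.01 that was -0.005 without background correction and positive under the other scalings tried. Srsf9 stood at 13.22, 13.32, 13.24 and 13.20 in GnRH arrays and at 13.22, 13.20, 12.98 and 12.83 in vehicle arrays. Its GnRH values matched the upper end of its vehicle values and lay above the lower ones, and its change was 0.19 ± 0.14. Srsf5, known in rats as an early-response gene of regenerating liver, had a probe (ILMN_3148662) at 8.14, 8.31, 8.63 and 8.52 in GnRH arrays and 8.56, 7.88, 8.18 and 7.78 in vehicle arrays, with overlap and a change of 0.30 ± 0.20.

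Srsf1, an activator of exon inclusion that also acts in export and translation, gave changes of -0.05 ± 0.14 and -0.01 ± 0.14 on its 2 probes, both with intervals inside 1.5-fold. Srsf2, which stays in the nucleus, stood on its brightest probe (ILMN_2636335) at 13.13, 13.40, 13.32 and 13.32 in GnRH arrays and 13.37, 13.40, 13.24 and 13.18 in vehicle arrays, a change of -0.01 ± 0.13. Srsf3, the smallest SR protein, gave -0.11 ± 0.18 and -0.18 ± 0.17 on its 2 probes. Srsf10, which represses splicing once dephosphorylated, had 3 probes with changes of 0.07 ± 0.33, 0.17 ± 0.54 and 0.18 ± 0.18. None of these SR probes had groups that stood apart.

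The stability, decay and localisation group had 4 positive and 11 negative changes over 15 tested probes, with a median of -0.10, and all 15 intervals lay within 2-fold. Celf2, a binder of GU-rich elements, stood on one probe (ILMN_2594575) at 10.56, 10.50, 10.93 and 10.70 in GnRH arrays and at 10.46, 11.16, 11.54 and 10.98 in vehicle arrays. The vehicle values of 11.16, 11.54 and 10.98 lay above every GnRH value and the one of 10.46 below, so the groups overlapped, and the change was -0.36 ± 0.22. Its other probe gave -0.16 ± 0.15. Celf1, which directs GU-rich transcripts to decay, gave -0.10 ± 0.16 and -0.08 ± 0.16 on 2 bright probes and -0.07 ± 0.39 on a dimmer one.

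Tia1, a translational silencer and stress-granule nucleator that binds U-rich RNA, stood at 7.99, 8.06, 7.67 and 7.47 in GnRH arrays and 8.18, 7.57, 8.38 and 8.07 in vehicle arrays, a change of -0.25 ± 0.20 with overlap. Its relative Tial1 had a change of 0.13 ± 0.19. Igf2bp3, an oncofetal binder that shields transcripts from decay, gave -0.23 ± 0.30 and -0.25 ± 0.22 on its 2 probes. Khsrp, which brings AU-rich transcripts to the decay machinery, stood at 11.09, 11.53, 10.65 and 11.18 in GnRH arrays and at 11.11, 10.35, 10.54 and 11.45 in vehicle arrays, again with overlap and with a change of 0.25 ± 0.26. Pcbp1 and Pcbp2, poly(C)-binding proteins, had changes of -0.14 ± 0.19 and -0.08 ± 0.12.

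Among the other splicing regulators 4 changes were positive and 5 negative over 9 tested probes, with a median of -0.03. Mbnl2, a muscleblind protein that binds YGCY-type motifs, gave -0.21 ± 0.18 and -0.17 ± 0.17 on its 2 probes. Mbnl1 gave 0.21 ± 0.23 on a dim probe and -0.03 ± 0.17 on a bright one. Tardbp, the TDP-43 protein that binds UG repeats, had 4 tested probes with changes of -0.07 ± 0.19, 0.03 ± 0.14, 0.17 ± 0.50 and 0.28 ± 0.18. Its probe with the lowest p (ILMN_3093089) stood at 8.23, 8.46, 8.04 and 8.35 in GnRH arrays and 8.32, 7.56, 7.96 and 8.11 in vehicle arrays. Ptbp1 stood at 8.98, 9.11, 8.88 and 8.82 in GnRH arrays and at 8.76, 9.09, 9.31 and 9.11 in vehicle arrays, a change of -0.12 ± 0.15. The groups of both probes overlapped.

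Of the translation and stress-granule genes, 3 had a tested probe, with 2 positive and 3 negative changes and a median of -0.02 that turned positive with median scaling, with cyclic loess, in the authors' processed values and without normalization between arrays. Pabpc1 stood at 9.89, 9.72, 10.57 and 10.26 in GnRH arrays and at 10.16, 10.54, 10.55 and 9.92 in vehicle arrays, a change of -0.18 ± 0.22. G3bp1, which nucleates stress granules, had one probe (ILMN_2774825) at 12.51, 12.73, 12.49 and 12.54 in GnRH arrays and 12.52, 12.50, 12.57 and 12.79 in vehicle arrays, a change of -0.02 ± 0.13. Caprin1, the partner of G3BP1, gave 0.16 ± 0.21 and 0.38 ± 0.45 on its 2 probes. The positive 0.38 was the highest change of any member, and it did not pass the test (limma adjusted p = 1). It was 0.855 without vehicle array 1 (limma unadjusted p = 0.0184, adjusted p = 0.438) and 0.028 without vehicle array 4.

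**Figure D2:**
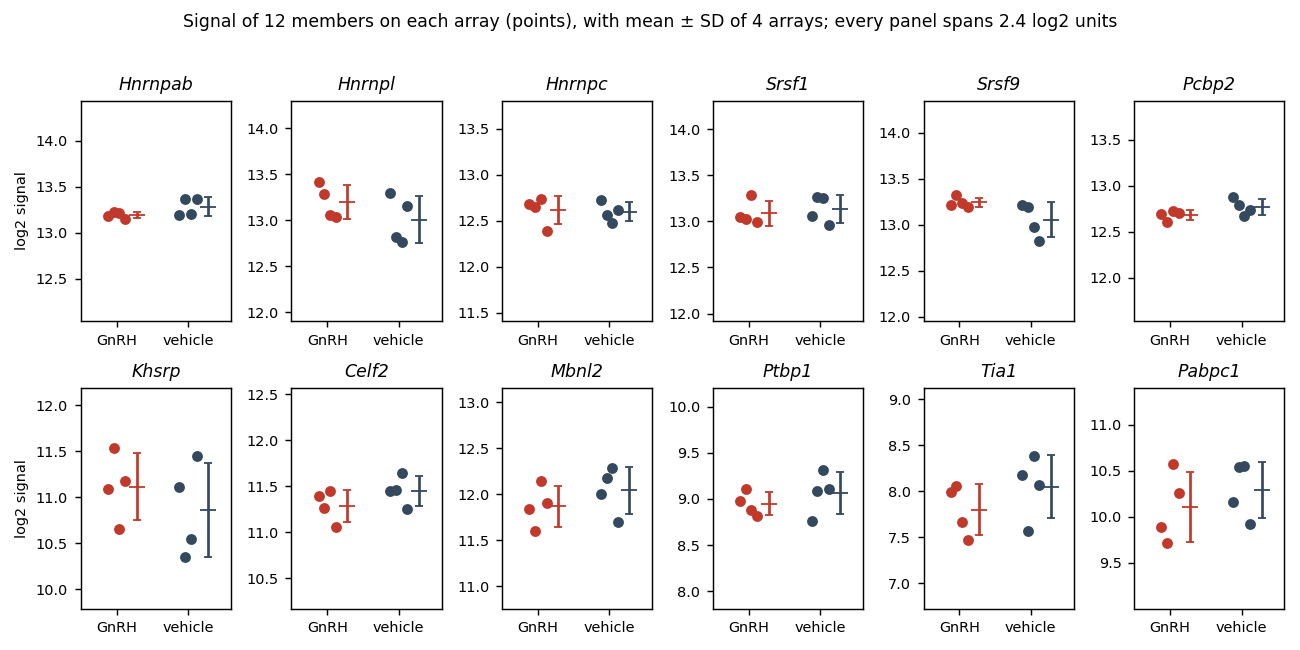
Log2 signal on each of the 4 GnRH arrays (left in each panel) and 4 vehicle arrays (right) for the brightest tested probe of 12 members, with the mean and SD of each group beside the points; every panel spans the same height on the log2 scale. The groups overlap in all 12 panels, for instance at 13.20 to 13.32 with GnRH and 12.83 to 13.22 with vehicle for Srsf9.

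Agreement between probes of one gene was then examined over the 23 genes with more than 1 tested probe, which give 54 pairs. The change after GnRH did not differ between the probes of any pair at an adjusted p below 0.05 (limma on the within-array difference, 0 of 54 pairs, against 0 of 3302 pairs, 0%, over the whole array). At an unadjusted p below 0.05 there was 1 member pair, both of Hnrnph1 (ILMN_1218767 and ILMN_2684986), whose changes differed by 0.66 ± 0.24 (limma unadjusted p = 0.0237, adjusted p = 0.998). The changes had the same sign in 34 of 54 member pairs and in 2151 of 3302 pairs of all genes. Their median absolute difference was 0.14 in members and 0.12 over all pairs.

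Agreement from array to array was poorer. The within-group SD of the difference between 2 probes of one gene was above 0.5 on the log2 scale in 26 of 54 member pairs (48.1%), against 18.7% of all pairs. Pairs that share a probe are not independent, and Hnrnph1 and Hnrnpul1, with 5 tested probes each, gave the most pairs. For single probes, the within-group SD was above 0.5 in 18 of 77 members (23.4%), from 14 genes, against 1044 of 11318 (9.22%) tested probes. The threshold of 0.5 was chosen after the values were seen, and these shares are descriptions. Of the 28 member probes with a mean log2 signal of 10 or more 1 was above it (3.57%, against 2.88% of all tested probes that bright), and of the 49 dimmer ones 17 were (34.7%, against 9.94%). The probes below 10 were not matched for level. The median over all tested members was 8.11 to 9.39 per array, against 6.56 over all tested probes. The shares below 10 therefore do not compare members with equally bright probes.

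**Figure D3:**
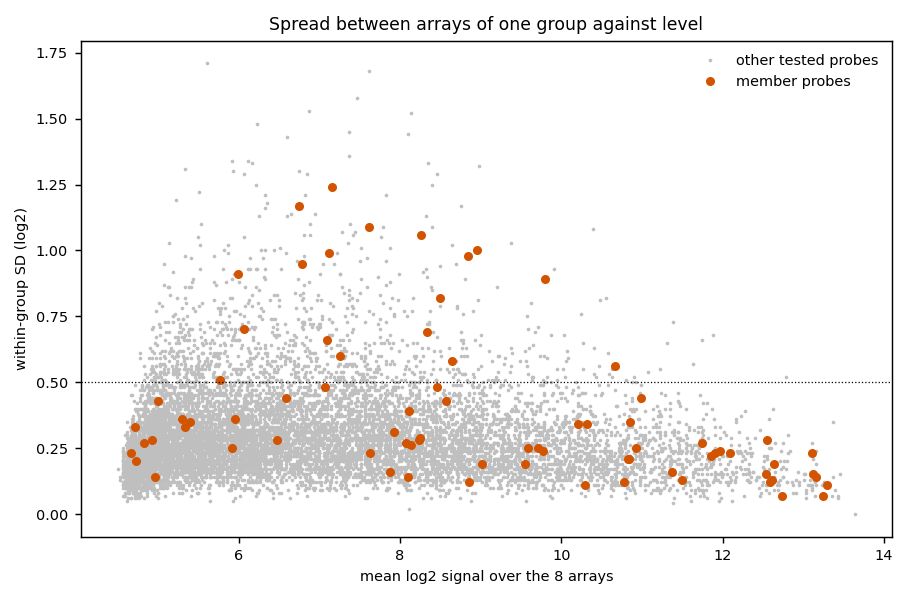
Within-group SD of the log2 signal over the 4 GnRH and 4 vehicle arrays (vertical axis) against mean log2 signal over the 8 arrays (horizontal axis), 1 point per tested probe, members large and other probes small. The dotted line marks an SD of 0.5; 18 of 77 members lie above it, 17 of them at a mean below 10.

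The 18 variable probes shared an order of arrays. Vehicle array 1 was the highest of the 8 in 16 of them, and the lowest was GnRH array 4 in 3 and vehicle array 4 in 12. In 15 of 18 GnRH arrays 1 and 3 both lay above GnRH arrays 2 and 4. The same held in 22 of 59 other tested members, 430 of all 1044 variable probes and 2318 of 11318 tested probes. Vehicle array 1 lay above vehicle array 4 in 17 of 18, with a median difference of 2.44 on the log2 scale, against 0.18 for the other tested members, 0.80 for all 1044 variable probes and -0.06 for all tested probes. Among those 1044 probes vehicle array 1 was highest in 458 and vehicle array 4 lowest in 383. Both of these arrays belong to the vehicle group, but the GnRH arrays varied as well. The median of the 18 variable probes was 7.92, 7.74, 8.25 and 6.88 on GnRH arrays 1 to 4. On vehicle arrays 1 to 4 it was 8.82, 7.97, 7.69 and 6.98. Array 4 was thus the lowest of both groups, and whether the order follows the replicate number was not tested.

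G3bp1 had the widest spread, on the probe ILMN_2719888. It stood at 7.67, 5.83, 7.87 and 6.25 in GnRH arrays and at 8.72, 7.90, 7.67 and 5.38 in vehicle arrays, a within-group SD of 1.24, while the steady probe of the same gene, given above, had 0.12. The change of the variable probe was -0.51 ± 0.68, and its interval ran from -2.01 to 0.99. It was -0.075 without vehicle array 1 and -1.199 without vehicle array 4 (limma unadjusted p = 0.0355, adjusted p = 0.947). Hnrnpa2b1, a paralogue of Hnrnpa1 that sorts RNA for transport and was named after its values were seen, stood on ILMN_2615855 at 7.54, 6.31, 7.62 and 5.62 in GnRH arrays and 8.66, 6.50, 6.04 and 5.68 in vehicle arrays. Its steady probe stayed between 7.67 and 8.45 in GnRH arrays and between 8.03 and 8.40 in vehicle arrays. Hnrnpa1 on ILMN_3096701 stood at 8.18, 6.92, 8.40 and 6.50 in GnRH arrays and at 8.91, 8.32, 7.70 and 6.06 in vehicle arrays, with a spread of 1.09 against 0.14 on the probe described first. That first probe read only 40.5 to 54.9 in deposited signal, near the array medians of 33.4 to 42.1. A small spread so near background does not show that the transcript was steady. Hnrnpk on ILMN_1245987 stood at 8.80, 7.74, 8.80 and 7.33 in GnRH arrays and 9.75, 8.71, 8.34 and 6.62 in vehicle arrays, with a spread of 1.06 against 0.28.

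**Figure D4:**
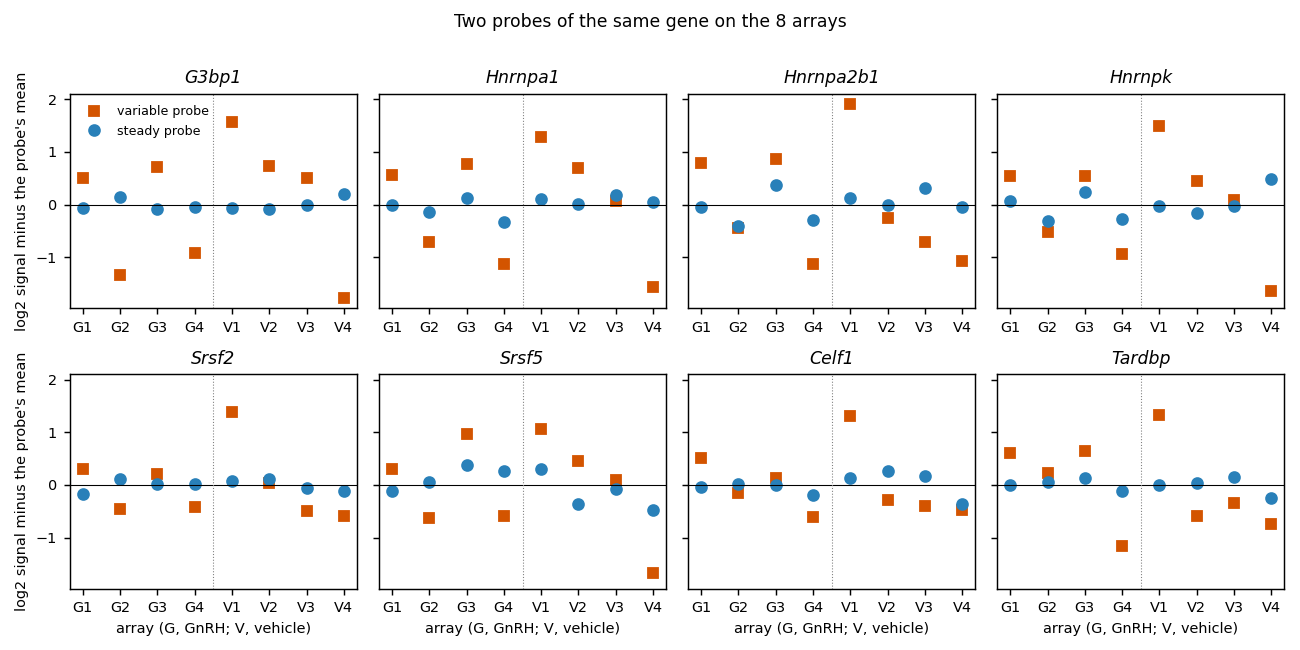
Log2 signal minus the probe's own mean over 8 arrays, for a variable probe (squares) and a steady probe (circles) of 8 genes, with GnRH arrays 1 to 4 on the left of each panel and vehicle arrays 1 to 4 on the right. The variable probes are highest on vehicle array 1 in all 8 genes. Among variable probes not shown, a probe of Hnrnpul1 and a probe of Igf2bp3 were highest on other arrays. The steady probes of G3bp1, Hnrnpa1, Srsf2 and Tardbp have a within-group SD of 0.11 to 0.14, and those of the other genes 0.21 to 0.29. The steady probe of Hnrnpa1 lies near background.

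The same contrast between probes held in SR factors and in the other groups. Srsf2 had a within-group SD of 0.70 on its dimmest probe and 0.11 and 0.19 on its other 2 probes. Srsf5 had 0.99 and 0.29, Srsf10 0.98, 0.58 and 0.25, Celf1 0.69, 0.21 and 0.21, and Tardbp 0.91, 0.27, 0.26 and 0.14. Hnrnph1, with 5 probes, ran from 0.44 to 1.00. In all, 13 of the 23 genes with several tested probes had both a probe above 0.5 and one below, and 10 had none above. For some of the 13 the cut fell between probes that moved alike. Both Hnrnph1 probes below it (0.44 and 0.48) were also highest on vehicle array 1. The Igf2bp3 probes had 0.51 and 0.35, and their difference had 0.28. The probes of Hnrnpa1 and Hnrnpul1 below the cut lay near background. In 11 of those 13 genes a variable and a steady probe were annotated to the same transcript accession. Hnrnpf, with 1 probe and a spread of 0.95, was the remaining gene, named after its values were seen.

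The pattern was present in the deposited signals before any normalization here. Vehicle array 1 had 9.89 times the signal of vehicle array 4 on the variable G3bp1 probe, 10.7 times on that of Hnrnpk and 8.16 times on that of Hnrnpa1, where the medians of the 2 arrays differed 1.25 times. In the authors' own processed values those ratios were 7.20, 7.33 and 5.84. The array medians lay near background, as only 42.3% and 42.0% of probes on vehicle arrays 1 and 4 were above it. Steady bright probes differed to varying degrees between the 2 arrays. Srsf9 read 10800 on vehicle array 1 and 4180 on vehicle array 4, and Celf2 on ILMN_2594575 read 1500 and 1260. The exceptions among the 18 were both variable probes of Hnrnpul1, which acts in the response to DNA damage, at 1.70 and 1.51 times in deposited signal, and a probe of Igf2bp3, at 0.709 times. Without vehicle array 1, 13 of 77 members (16.9%) were above an SD of 0.5, against 6.53% of all tested probes. Leaving out vehicle arrays 1 and 4, a choice made after the values were seen, left 11 of 77 (14.3%), against 4.10%. What sets these arrays apart was not tested. With both arrays left out of the fit 0 of 77 members passed the limma test, and the lowest adjusted p was 0.171. In that fit 10 members had an unadjusted p below 0.05. The share of all tested probes at that p is not given for this fit, so the 10 is not read as a result about the members. Without vehicle array 1 alone 4 members were at that p, beside 1150 of 11318 tested probes, where the fit of all arrays had 329.

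Genes that work with the members but are no members were counted beside them from 4 lists, with 71 tested probes of 47 genes. The core spliceosome and splice-site recognition list had 14 positive and 15 negative changes with a median of -0.01 and 0 calls over 29 probes (limma). The list of SR-protein kinases and SR-related proteins had 15 positive and 1 negative change with a median of 0.22 over 16 probes of 10 genes, and again 0 calls, with 1 probe at an unadjusted p below 0.05. Over all tested probes 5439 of 11318 changes were positive. Under the other scalings tried 14 or 15 of the 16 were positive, except that all 16 were without normalization between arrays, where 8402 of 11318 tested probes were positive and their median was 0.11. Clk4, a nuclear kinase that phosphorylates SR proteins, gave 0.60 ± 0.23, 0.43 ± 0.23 and 0.23 ± 0.26 on 3 probes (lowest limma unadjusted p = 0.0269, adjusted p = 1), with overlapping groups. The SR factors themselves, by contrast, had 8 of 16 changes positive; the difference between the lists was not tested.

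Further nuclear RNA binders and splicing regulators had 11 positive and 8 negative changes with a median of 0.01 and 0 calls. In the list of the ELAVL and tristetraprolin families 1 of 7 tested probes was called, that of Zfp36, which promotes decay of AU-rich transcripts. Zfp36 stood at 12.20, 12.31, 12.24 and 12.74 in GnRH arrays and at 9.39, 9.59, 9.33 and 9.99 in vehicle arrays, well apart, and was 6.95-fold higher (log2 change 2.80 ± 0.19, limma adjusted p = 3.88e-05). Elavl1, the target of the antibody, stood at 12.31, 12.29, 12.16 and 12.04 in GnRH arrays and 12.36, 12.58, 12.51 and 12.36 in vehicle arrays. All 4 of its GnRH values lay below all 4 vehicle values, and its change of -0.25 ± 0.13 did not pass the test (limma adjusted p = 1).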

How the data were processed

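RNA recovered in the ELAVL1 pull-down of 8 LbetaT2 samples was measured, 4 GnRH and 4 vehicle, grouped by sample title. The authors deposited bead signal intensity per probe, not normalized as far as its values show, with a detection p-value beside each signal, per the file headers. A second deposited table holds processed linear intensity by an unstated method (array medians 38.3 to 38.6). The platform annotation named the probes, RefSeq gene identifiers updated the symbols, and each probe was tested alone. The genome build is unstated, so coordinates are left out.

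Signals were processed with neqc (normexp by detection p, offset 16, quantile normalization, log2) in limma 3.58.1 under R 4.3.3, which removes differences in total yield. The 11318 probes above background (detection p below 0.05) on 4 or more of the 8 arrays were fitted with lmFit and eBayes. P-values were adjusted over all of them with the Benjamini-Hochberg method at 0.05. Pairs of probes were tested on their within-array log2 difference. The scripts were tested on simulated data.

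Members and gene lists were chosen with earlier results of these data known. Named genes are any called member, the 4 genes with the lowest p per group, genes whose probes differ by over 0.5, genes with no tested probe, and a fixed list of central members. Precision is limited by the number of arrays: the median SE of a member's log2 change was 0.19. Background correction, normalization, filter, variance model, replicate block and single arrays were varied.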

Additional observations from a re-analysis of the deposited data

Results flagged for a closer look

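In 4 of 86 groups of 4 arrays, over 43 probes of the named members, 1 array stood apart from the other arrays of its group by Dixon's criterion at 95%; chance alone marks about 1 group in 20. Celf1 on ILMN_1221266 read 9.63 on vehicle array 1, where the other vehicle arrays read 7.85 to 8.04. Igf2bp3 on ILMN_1226175 read 5.73 on GnRH array 4, where the other GnRH arrays read 5.09 to 5.13. Pcbp1 on ILMN_2702197 read 11.37 on GnRH array 2, below the other GnRH arrays at 11.75 to 11.81. Srsf3 on ILMN_2733399 read 9.51 on vehicle array 4, below the other vehicle arrays at 9.97 to 9.98, and its other probe was also lowest there among vehicle arrays, at 9.35. None of these probes passed the test between groups.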

How the results depend on the processing

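The count of called members was 0 under all 21 alternatives, with 0 to 12 at an unadjusted p below 0.05. The lowest adjusted p was 0.12, reached with array weights in limma. Array weights also gave the 12, beside 2413 of 11318 tested probes at that unadjusted p. The count of pairs of member probes whose changes differ was likewise 0 under each. The count over all tested probes was 14 without the filter on dim probes, where more probes were tested, and 50 with array weights (46 higher and 4 lower), for which the cause was not tested. Leaving out 1 array gave 17 (without vehicle array 3) to 27 calls over all probes. The median change of the members was 0.081 without normalization between arrays, a setting that moved all tested probes by 0.113, and ran from -0.115 to 0.041 when 1 array was left out. Without that normalization Pcbp2 stood at 0.084 and Srsf1 at 0.138. With a replicate block the calls over all probes were 43 and those among members 0, with 2 members at an unadjusted p below 0.05. Probes at an unadjusted p below 0.05 numbered 596 with the block and 329 without it. Deviations of same-numbered arrays correlated at 0.72, -0.23, 0.26 and 0.65, and GnRH arrays 1 and 4, but not 2 and 3, correlated best with the vehicle array of their own number. Same-numbered arrays also had neighbouring sample numbers, and the labels do not say whether they were handled together. As that was unknown and 1 pair was negative, the main fit did not treat the arrays as pairs. These correlations do not show that the arrays were unpaired. Of 545 values of 26 single members under an alternative, 0 passed the threshold and 9, over 7 members, had the other sign. Signal over background limits the 20 dim member probes, for which no change could be given.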

Other observations

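Array-to-array spread also differed between lists that hold no member. A within-group SD above 0.5 was found in 6 of 19 tested probes (31.6%) of the list of further splicing regulators and nuclear RNA binders, in 2 of 16 (12.5%) of the SR kinases and SR-related proteins and in 2 of 29 (6.90%) of the core spliceosome list, against 9.22% of all tested probes. The threshold was chosen after the values were seen, and the differences between lists were not tested.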
